A study of Mus musculus with 4 samples.

Results

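Paneth cells of the mouse small intestine were taken here as barcodes rich in defensin mRNA. A single-cell barcode was a member when genes whose symbol starts with Defa, together with Lyz1, gave 20% or more of its UMIs (unique molecular identifiers, one per captured transcript). It also needed at least 1000 UMIs, 500 detected genes and under 30% mitochondrial UMIs. This rule chose 1101 of the 32872 barcodes that passed the 3 filters, out of 44576 in all, and left 31771 other barcodes. The members were thus chosen by their Defa and Lyz1 UMIs, so the height of these genes in them is a description and was not tested. Epithelium was sorted after staining with DAPI and antibodies to CD326, TER-119, CD31 and CD45, and captured with the 10x 3′ kit. The TrnA mutant mice carry the point mutation G5081A in the mitochondrial alanine tRNA gene, mt-Ta (chrM:5018-5086, minus strand, mm10), with a labelled mutation load of 77% in mutant 1 and 81% in mutant 2. Wild type mice were the comparison group, with n = 2 libraries for each genotype. All mice were 25 weeks old, and no strain or treatment is given in the labels. The series title speaks of acute colitis, but no sample label names a colitis treatment. Mutant 1 and wild type 1 form set A, with no sex in the title and Cell Ranger 7.0.0. Mutant 2 and wild type 2 form set B, titled male, with Cell Ranger 7.1.0, so these features of the sets cannot be told apart.

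Paneth cells sit at the base of the crypts of Lieberkühn, between the stem cells, and release granules filled with antimicrobial proteins into the crypt lumen. In mice the alpha-defensins, also called cryptdins, are made as precursors that the protease matrilysin (Mmp7) cuts, and lysozyme (Lyz1) breaks bacterial cell walls. Wnt signals drive the maturation of Paneth cells in mice, in part through TCF factors that act on defensin genes, and Paneth cells in turn give Wnt and EGF-family ligands to the stem cells.

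The defensin genes that carry the results lie close together on chromosome 8. The 20 Defa genes tested here lie between 21025545 and 21735471 (mm10, GENCODE vM21). The most abundant was Defa24 (chr8:21734494-21735471, plus strand), followed in most libraries by Defa21 (chr8:21025545-21026516, plus strand), Defa22 (chr8:21162277-21163249, plus strand) and Defa30 (chr8:21134642-21135598, plus strand). Lyz1 lies elsewhere, at chr10:117287797-117292868, minus strand. Many of these genes are near copies of each other. Over the annotated transcripts of the 9 most abundant Defa genes, identity between pairs had a median of 78.6%, and it reached 99.3% for Defa21 with Defa22, 98.7% for Defa5 with Defa34 and 95.5% for Defa30 with Defa17. Reads can be split or lost between such copies, so the counts of single Defa genes are uncertain, and Defa21 and Defa22 are summed below. The 250 bases before the RefSeq start (GRCm38.p6) are shown for 4 abundant genes of the defensin mix in these barcodes, with each match to ATCAAAG in capitals. These letters are a core that TCF factors bind. Of the 10 most abundant Defa and Lyz1 genes, 5 had an entry in the RefSeq table. Defa22 (chr8:21162027-21162276, plus strand) has the same 250 bases as Defa21 (identity 100%).
Defa21, chr8:21025295-21025544, plus strand: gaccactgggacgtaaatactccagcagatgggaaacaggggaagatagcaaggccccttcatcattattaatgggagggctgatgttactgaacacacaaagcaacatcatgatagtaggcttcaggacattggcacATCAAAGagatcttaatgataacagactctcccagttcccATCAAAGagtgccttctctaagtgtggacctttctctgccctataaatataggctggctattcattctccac
Defa30, chr8:21134400-21134649, plus strand: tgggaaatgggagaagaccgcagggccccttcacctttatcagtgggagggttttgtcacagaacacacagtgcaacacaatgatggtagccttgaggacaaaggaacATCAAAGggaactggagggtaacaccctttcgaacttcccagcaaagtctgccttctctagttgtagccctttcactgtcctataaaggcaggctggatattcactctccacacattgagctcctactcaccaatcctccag
Defa36, chr8:21427178-21427427, plus strand: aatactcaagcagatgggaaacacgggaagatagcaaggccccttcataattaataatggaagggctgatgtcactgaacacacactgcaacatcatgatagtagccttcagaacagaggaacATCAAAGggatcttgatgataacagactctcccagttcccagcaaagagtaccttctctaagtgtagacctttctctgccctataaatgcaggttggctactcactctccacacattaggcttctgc
Lyz1, chr10:117292869-117293118, minus strand: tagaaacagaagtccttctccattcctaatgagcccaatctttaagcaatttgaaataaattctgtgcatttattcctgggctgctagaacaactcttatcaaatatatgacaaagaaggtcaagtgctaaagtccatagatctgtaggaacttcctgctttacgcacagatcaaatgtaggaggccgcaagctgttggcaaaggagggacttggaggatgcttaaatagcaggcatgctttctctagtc
The Defa21 window held the motif at 112 and 72 bases before the start, the Defa30 window at 142 bases and the Defa36 window at 127 bases. The Lyz1 window had no match on either strand. Both ATCAAAG and its reverse complement CTTTGAT were counted, with no other motif searched. Of all 32851 windows of this length in the RefSeq table, 1053 (3.21%) held the motif and 0.0822% held it at least 2 times. Among the 16 Defa windows in the table, 13 held it and 9 held it at least 2 times. The Defa21 window was 80% identical to that of Defa36 and 61.8% identical to that of Defa30. A match describes the letters, and factor binding was not measured.

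The 2 genotypes gave 377 and 359 members in mutants 1 and 2, against 51 and 314 members in wild types 1 and 2. As a share of the barcodes that passed the filters this was 3.28 and 4.15% in mutants 1 and 2, against 1.13 and 3.83% in wild types 1 and 2. The exact 95% binomial intervals were 2.96 to 3.62% and 3.74 to 4.59% in the mutants, and 0.839 to 1.48% and 3.43 to 4.27% in the wild types, which cover counting error only. Wild type 1 stands apart with 51 members and the lowest share, while the other 3 libraries were between 3.28 and 4.15%. Members held more UMIs than other barcodes. Their median was 24683 and 50371 UMIs in the mutants, against 79458 and 38054.5 UMIs in the wild types. Other barcodes had a median of 9693 and 10617 UMIs in the mutants, against 21061.5 and 10998 UMIs in the wild types. The summed UMIs of the members came to 9560109 and 16926887 UMIs in the mutants, against 3823502 and 12146253 UMIs in the wild types. Members of the same library are not replicates, so genotypes were compared on these sums, and the labels do not say whether libraries came from separate animals. The p-values therefore rest on libraries. Those of edgeR take the spread between libraries largely from all genes pooled, so the spread of a single gene counts little in them. The number of members that scrublet marked as doublets was 45 and 57 in the mutants, against 0 and 25 in the wild types. Pairs of libraries shared 26 to 60 barcode sequences, and no barcode was a member in both libraries of a pair.

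The members carried the other Paneth markers, which the rule did not read. Itln1, the lectin intelectin (chr1:171518122-171535294, minus strand), stood at 21586 and 26623 CPM in mutants 1 and 2, against 36333 and 23339 CPM in wild types 1 and 2 (CPM, UMIs of a gene scaled to a common library size, with TMM). In other barcodes Itln1 was at 475 and 543 CPM in the mutants, against 383 and 382 CPM in the wild types. Ang4, a microbicidal ribonuclease (chr14:51763878-51773590, minus strand), had in members 11531 and 10646 CPM in the mutants, against 18344 and 7934.5 CPM in the wild types. In other barcodes Ang4 had 122 and 123 CPM in the mutants, against 74.5 and 83.6 CPM in the wild types. Mptx2, a mucosal pentraxin (chr1:173274382-173277777, minus strand), had in members 5197 and 7975 CPM in the mutants, against 9718 and 6730.4 CPM in the wild types. In other barcodes Mptx2 had 61.1 and 83.4 CPM in the mutants, against 20.5 and 52.8 CPM in the wild types. All 3 were far above the other barcodes in every library, and their levels in members were not ordered by genotype. Markers of cells outside the epithelium were near 0 in members. B and plasma cell markers summed to at most 2.96 CPM, stromal and endothelial markers to at most 0.823 CPM, and erythroid markers to at most 3.40 CPM, each over the 4 libraries, on library totals.

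The defensin share separates most barcodes, with a tail near the threshold. The median share was 50.9 and 56.1% in mutants 1 and 2, against 56.9 and 55.1% in wild types 1 and 2. The highest single barcode reached 75.02%, in mutant 1. Just inside the threshold, at 20 to 25%, lay 35 and 13 members in the mutants, against 1 and 39 members in the wild types. Just outside it, at 15 to 20%, lay 39 and 11 barcodes in the mutants, against 5 and 32 barcodes in the wild types. Of the summed UMIs of other barcodes, Defa and Lyz1 made up 0.502 and 0.735% in the mutants, against 0.222 and 0.595% in the wild types.

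**Figure D1:**
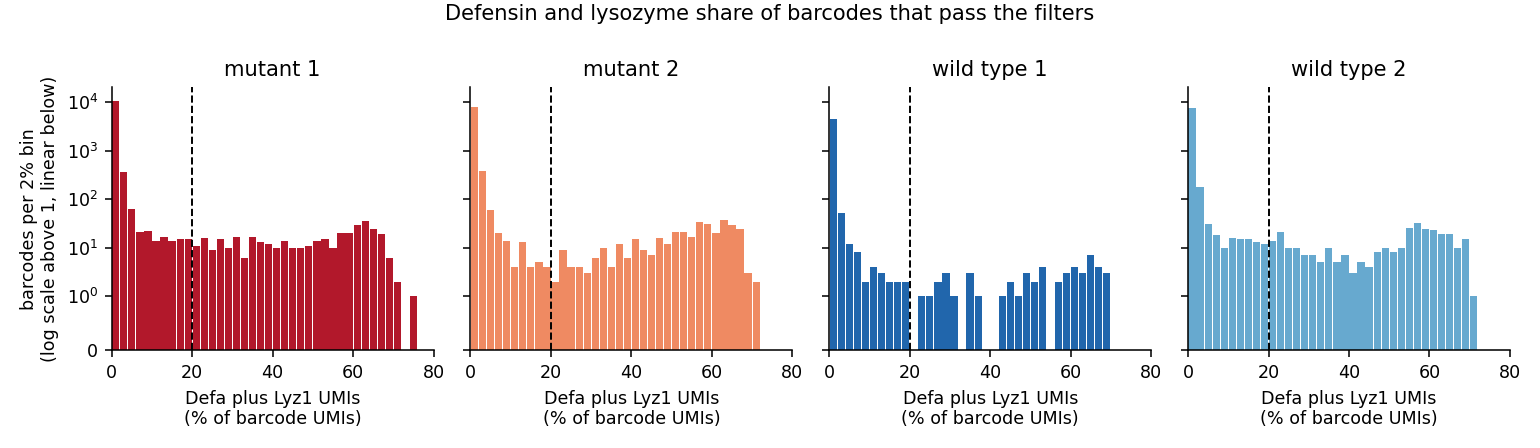
Histograms of the share of Defa plus Lyz1 UMIs (x axis, % of the UMIs of a barcode, 2% bins) over all barcodes that pass the filters, one panel per library, with the number of barcodes on the y axis (log scale above 1, linear below). The dashed line is the 20% threshold: most barcodes lie near 0%, a second rise lies near 50 to 70%, and 39, 11, 5 and 32 barcodes of mutant 1, mutant 2, wild type 1 and wild type 2 lie at 15 to 20%.

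Barcodes with a larger defensin share also held more Itln1, Ang4 and Mptx2 mRNA. Members of 60% or more (high-share) were set beside members of 20 to 40% (low-share), with CPM taken outside Defa and Lyz1. Itln1 in high-share members was at 89886 and 64231 CPM in the mutants, against 105869 and 61439 CPM in the wild types. Its low-share level was 26281 and 26235 CPM in the mutants, against 56643 and 19937 CPM in the wild types. The high-share level of Ang4 was 49582 and 30937 CPM in the mutants, against 59858 and 26453 CPM in the wild types. Its low-share level was 13537 and 6721 CPM in the mutants, against 6171 and 4924 CPM in the wild types. Mptx2 in high-share members was at 23068 and 20798 CPM in the mutants, against 29229 and 18958 CPM in the wild types, and its low-share values lay between 4746 and 5332 CPM. All 3 were higher in high-share members in every library. Mmp7, the protease that cuts the defensin precursors, had a high-share level of 4681 and 3892 CPM in the mutants, against 5286 and 4346 CPM in the wild types. Its low-share level was 1648 and 2728 CPM in the mutants, against 5921 and 2201 CPM in the wild types, so wild type 1 went the other way. Olfm4, a stem cell gene, ran the other way, with a high-share level of 449.8 and 467 CPM in the mutants, against 305 and 373 CPM in the wild types. Low-share members had an Olfm4 level of 1829 and 1282 CPM in the mutants, against 2144 and 1406 CPM in the wild types. Fabp1, an enterocyte fatty acid binding protein, had a high-share level of 57.7 and 549.6 CPM in the mutants, against 20.00 and 427 CPM in the wild types. Its low-share level was 434 and 995 CPM in the mutants, against 25.6 and 1635 CPM in the wild types. Both genes were lower in high-share members in every library. For Fabp1 in wild type 1 this rests on few UMIs, 33 over all its members. Apoa1, an apolipoprotein of enterocytes, had no common direction, with a high-share level of 274 and 1055 CPM in the mutants, against 138 and 889.6 CPM in the wild types. Low-share members had an Apoa1 level of 338 and 903 CPM in the mutants, against 97.2 and 1165 CPM in the wild types, lower than the high-share level in mutant 2 and wild type 1. In wild type 1 the ranges of 20 to 40%, 40 to 60% and 60% or more rest on 12, 18 and 21 members. These are descriptions of barcodes within a library, not tests.

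Within the Defa plus Lyz1 UMIs, the 2 wild types differed from each other by more than the genotype means for each of the 5 most abundant genes. Of these UMIs, Defa24 gave 33.3 and 37.7% in mutants 1 and 2, against 29.9 and 43.6% in wild types 1 and 2. Defa21 gave 16.7 and 15.5% in the mutants, against 19.4 and 10.2% in the wild types, and Defa22 gave 14.4 and 13.3% in the mutants, against 15.9 and 8.67% in the wild types. Wild type 2 was the lowest and wild type 1 the highest library for both genes. Defa30 gave 11.5 and 13.2% in the mutants, against 9.49 and 18.2% in the wild types, with the 2 wild types again at the extremes. Lyz1 gave 10.1 and 6.39% in the mutants, against 13.5 and 6.24% in the wild types, so both libraries of set A were above both of set B. Of the less abundant genes, Defa5 gave 1.87 and 1.69% in the mutants, against 1.63 and 1.22% in the wild types, and its near copy Defa34 gave 1.04 and 1.01% in the mutants, against 0.816 and 0.647% in the wild types. Both were higher in each mutant than in each wild type. Mean shares of Defa5 were 1.78 ± 0.124% in mutants and 1.43 ± 0.291% in wild types (SD, n = 2 each). Means of Defa34 were 1.03 ± 0.0185% in mutants and 0.732 ± 0.119% in wild types (SD, n = 2 each). In the exact two-sided permutation test over libraries both gave p = 0.333, the smallest that 2 against 2 can give, and the Benjamini-Hochberg value over the 10 genes tested was 1. Defa36 gave 4.54 and 4.53% in the mutants, against 3.25 and 4.78% in the wild types. Defa17 gave 2.35 and 2.45% in the mutants, against 2.20 and 2.55% in the wild types. Defa29 gave 2.15 and 2.44% in the mutants, against 2.21 and 1.94% in the wild types. These 3 had an exact permutation p of at least 0.667.

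The members did not form 1 uniform group in their defensin mix. Across single members, Defa21 plus Defa22 made up anything from 0.167 to 48.3% of the Defa plus Lyz1 UMIs, with many barcodes near 0 to 10% and many near 30 to 45%. Limits of 10% and 25% were chosen after seeing this spread, and members are called Defa21/22-low and Defa21/22-high by them. Under 10% lay 38 and 90 members in the mutants, against 5 and 160 members in the wild types, which is 10.1 and 25.1% in mutants 1 and 2, against 9.80 and 50.96% in wild types 1 and 2. At 25% or more lay 255 and 204 members in the mutants, against 40 and 98 members in the wild types. Wild type 2 had the most Defa21/22-low members and wild type 1 the fewest. The mean percentage of Defa21/22-low members was 17.6 ± 10.6% in mutants and 30.4 ± 29.1% in wild types (SD, n = 2 each), with an exact two-sided permutation p of 1.

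**Figure D2:**
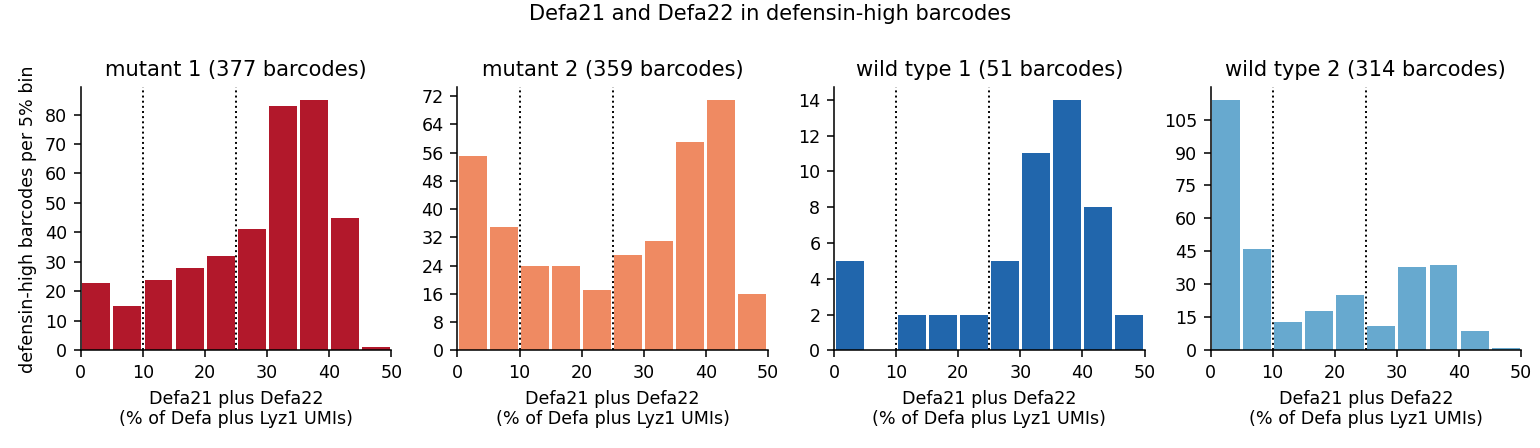
Histograms over defensin-high barcodes of Defa21 plus Defa22 as a share of Defa plus Lyz1 UMIs (x axis, %, 5% bins), with the number of barcodes on the y axis and one panel per library; y axes differ. Dotted lines mark 10% and 25%: 38, 90, 5 and 160 barcodes of mutant 1, mutant 2, wild type 1 and wild type 2 lie under 10%, and 255, 204, 40 and 98 lie at 25% or more.

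Some other defensin genes differed in 1 direction between these ranges in all 4 libraries, and others did not. Of the Defa plus Lyz1 UMIs of Defa21/22-high members, Defa24 gave 30.4 and 31.5% in the mutants, against 27.9 and 33.6% in the wild types. In Defa21/22-low members it gave 50.997 and 52.3% in the mutants, against 67.4 and 52.5% in the wild types. Part of that difference is arithmetic, since the shares sum to a whole. Defa5, which the choice of range did not read, gave in Defa21/22-high members 1.94 and 1.90% in the mutants, against 1.65 and 1.56% in the wild types. In Defa21/22-low members Defa5 gave 1.10 and 1.01% in the mutants, against 0.389 and 0.853% in the wild types. Defa35 gave in Defa21/22-high members 0.249 and 0.276% in the mutants, against 0.234 and 0.191% in the wild types. Its Defa21/22-low share was 0.0468 and 0.0661% in the mutants, against 0.0349 and 0.0417% in the wild types. Both genes were higher in Defa21/22-high members in every library. Defa17 was lower there, at 2.02 and 1.78% in the mutants, against 1.91 and 1.62% in the wild types. In Defa21/22-low members Defa17 gave 5.70 and 4.44% in the mutants, against 11.01 and 3.45% in the wild types. Defa30 gave in Defa21/22-high members 10.6 and 10.1% in the mutants, against 9.18 and 11.2% in the wild types. Its Defa21/22-low share was 12.99 and 22.1% in the mutants, against 0.795 and 25.3% in the wild types, lower than the high share in wild type 1 alone. Defa36 gave in Defa21/22-high members 4.33 and 4.40% in the mutants, against 3.12 and 4.76% in the wild types. Its Defa21/22-low share was 5.49 and 4.25% in the mutants, against 4.18 and 4.53% in the wild types, so it was lower in Defa21/22-high members of both libraries of set A and higher in those of set B. The Defa21/22-low range of wild type 1 rests on 5 members, so its values carry little weight.

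Some genes other than Lyz1 and those with a Defa symbol differed between the 2 ranges in the same direction in all 4 libraries. Of 1043 genes with at least 100 CPM outside Defa and Lyz1, 242 were higher and 58 lower in Defa21/22-high members in every library. Genes of the defensin locus with other symbols are among them, such as Gm15293, higher, and AY761184, lower. Gm15293 gave log2 ratios of high over low of 1.67 and 1.66 in the mutants, against 4.08 and 1.57 in the wild types. AY761184 gave -0.92 and -0.93 in the mutants, against -0.38 and -1.08 in the wild types. Genes can also share a direction in 4 libraries by chance. How many would do so was not computed, so these counts are description only. Levels here are CPM outside Defa and Lyz1. Rnase1, a secreted pancreatic-type ribonuclease (chr14:51144998-51146785, minus strand), had in Defa21/22-high members 118 and 163 CPM in the mutants, against 145 and 119 CPM in the wild types. The Defa21/22-low level of Rnase1 was 1024 and 1045 CPM in the mutants, against 1732 and 899 CPM in the wild types. The log2 ratios of high over low were -3.06 and -2.64 in the mutants, against -3.54 and -2.87 in the wild types. Klk1, a tissue kallikrein protease, had in Defa21/22-high members 85.4 and 83.02 CPM in the mutants, against 51.1 and 55.01 CPM in the wild types. The Defa21/22-low level of Klk1 was 506 and 211 CPM in the mutants, against 1663 and 124 CPM in the wild types. Reg4, a secreted lectin of the regenerating family, gave log2 ratios of -1.73 and -1.33 in the mutants, against -1.72 and -0.60 in the wild types. On the other side, Reg3g, a lectin that kills Gram-positive bacteria, had in Defa21/22-high members 3050.1 and 4246 CPM in the mutants, against 5414 and 4002 CPM in the wild types. The Defa21/22-low level of Reg3g was 1533 and 2117 CPM in the mutants, against 1749 and 1946 CPM in the wild types. Nupr1, a stress-induced nuclear protein, gave log2 ratios of 1.20 and 1.498 in the mutants, against 0.95 and 2.07 in the wild types. Fth1, the ferritin heavy chain, gave 0.60 and 0.80 in the mutants, against 0.83 and 0.81 in the wild types. Itln1 gave -0.25 and -0.047 in the mutants, against 0.13 and 0.23 in the wild types, so its direction changed between libraries. Ang4 gave 0.51 and 0.62 in the mutants, against 3.89 and 0.94 in the wild types. Mptx2 gave 0.21 and 0.15 in the mutants, against 5.42 and 0.54 in the wild types. Both were thus higher in Defa21/22-high members in all 4 libraries, from 343 Ang4 and 63 Mptx2 UMIs in the Defa21/22-low members of wild type 1. Among members of 40% defensin share or more, where wild type 1 has no Defa21/22-low member, Rnase1 still gave -2.24, -2.58 and -2.90 in mutant 1, mutant 2 and wild type 2. Reg3g there gave 0.81, 0.94 and 1.27. Ang4 there gave -0.085, 0.42 and 0.88, and Mptx2 -0.69, -0.083 and 0.54, so their direction then changed between libraries. Depth moved with the ranges in all 4 libraries. The median of Defa21/22-high members was 29062 and 55582.5 UMIs in the mutants, against 90573.5 and 52825.5 UMIs in the wild types. In Defa21/22-low members the median was 9266 and 41528 UMIs in the mutants, against 33065 and 34431.5 UMIs in the wild types. The defensin share moved with the ranges as well. Its median in Defa21/22-high members was 55.6 and 60.9% in the mutants, against 59.5 and 63.1% in the wild types. In Defa21/22-low members it was 30.7 and 49.99% in the mutants, against 28.4 and 52.1% in the wild types. The part of depth and of defensin share in these results was not tested. The ranges were cut from the same cells, so none of these values has a test.

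**Figure D3:**
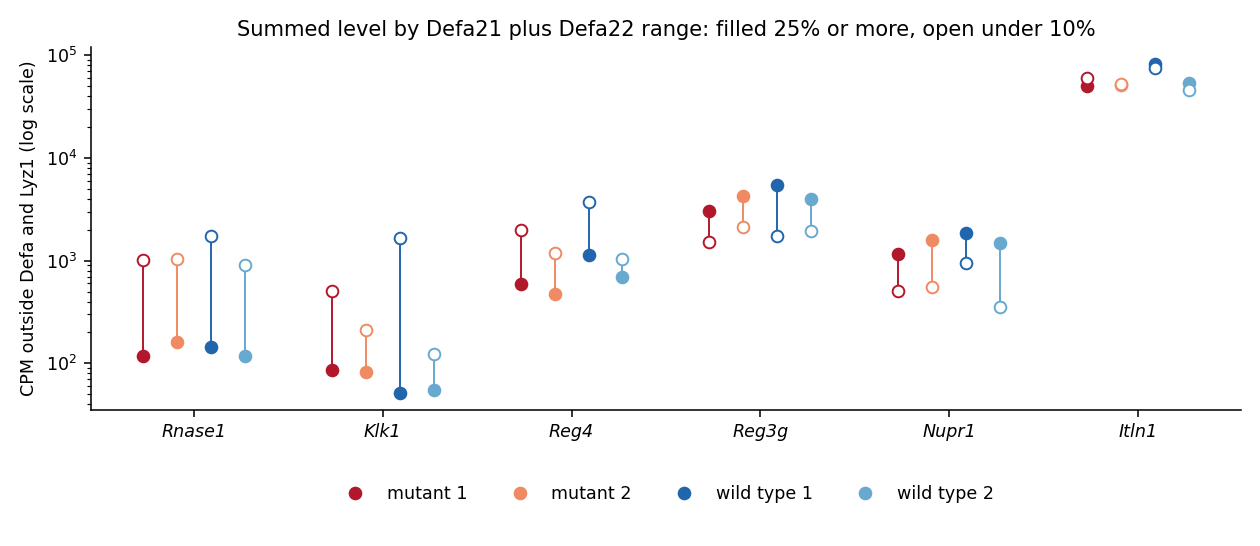
Summed level (y axis, CPM outside Defa and Lyz1, log scale) of 6 genes in defensin-high barcodes with Defa21 plus Defa22 at 25% or more of Defa plus Lyz1 UMIs (filled) and under 10% (open), for each library. Rnase1 lies between 118 and 163 CPM in Defa21/22-high and between 899 and 1732 CPM in Defa21/22-low barcodes, while Itln1 shows no common direction.

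Because the mutation lies in a mitochondrial tRNA gene, the mitochondrial share of the members was compared between genotypes. Of the UMIs of members, the 13 mRNAs encoded by mitochondrial DNA gave 2.12 and 1.75% in mutants 1 and 2, against 1.21 and 1.99% in wild types 1 and 2. In other barcodes they gave 5.88 and 5.77% in the mutants, against 4.98 and 5.93% in the wild types. Members averaged 1.94 ± 0.258% in mutants and 1.60 ± 0.547% in wild types (SD, n = 2 each). The difference of 0.336 percentage points had an exact two-sided permutation p of 0.667. It was 0.906 within set A and -0.233 within set B, and -0.0505 without wild type 1. Outside Defa and Lyz1 the share in members was 4.20 and 3.96% in the mutants, against 2.78 and 4.47% in the wild types. Of the 13 mRNAs, 0 were called. The median log2 ratio was 0.13, with set A at 0.43 and set B at -0.11. The mRNA of mt-Cytb, a complex III subunit, had 1891 and 2387 CPM in the mutants, against 1270.1 and 1856 CPM in the wild types, with a log2 ratio of 0.47 ± 0.24 (SE) and an adjusted p of 0.926 in edgeR's quasi-likelihood test. For mt-Nd6, the one mRNA read from the light strand, the values were 7.74 and 21.9 CPM in the mutants, against 8.52 and 32.2 CPM in the wild types, with a log2 ratio of -0.41 ± 0.21. The limit of 30% mitochondrial UMIs bounds these shares from above.

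Between genotypes, few genes of the members passed the test. On the summed UMIs, edgeR's quasi-likelihood test with a term for the set called 5 of 11225 genes (0.0445%) at an adjusted p under 0.05 (Benjamini-Hochberg), of which 4 (0.0356%) were higher and 1 (0.00891%) lower in mutants. On unadjusted p under 0.05 there were 635 genes (5.66%). The fit without the set term called 0 genes (160 at unadjusted p under 0.05), and DESeq2 with the set term called 0 (92). Fits of 3 libraries cannot hold the set term and called 0 for each library left out, so they say nothing of single libraries beyond the loss of that term. On library totals without TMM scaling, 4 genes were called, all higher in mutants, and the median log2 ratio of all genes was 0.122, against 0.0068 with TMM. Log2 ratios below come from the TMM-scaled fit unless both scales are given.

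The most abundant of the called genes was an enterocyte enzyme, which had the highest adjusted p of the 5. Sis, the brush border sucrase-isomaltase (chr3:72888557-72967863, minus strand), had 920 and 2711 UMIs in mutants 1 and 2, against 66 and 1149 UMIs in wild types 1 and 2. On the CPM scale this was 77.4 and 182 in the mutants, against 17.6 and 102 in the wild types, so each mutant was above the wild type of its set, while mutant 1 was below wild type 2. Sis rose in mutants (adjusted p = 0.0194, edgeR), at a log2 ratio of 1.39 ± 0.24 (SE) in the fit, and at 2.11 within set A and 0.82 within set B. It was the only called gene with a mean of at least 20 CPM. Doublets held 293 and 1157 of its UMIs in the mutants, against 0 and 117 in the wild types, and without doublets Sis was not called. The other 4 calls were below that level and are named after their values were seen. Acta1, the skeletal muscle alpha-actin (chr8:123891769-123894751, minus strand), had 39 and 159 UMIs in the mutants, against 2 and 16 UMIs in the wild types. Its level was 3.28 and 10.7 CPM in the mutants, against 0.532 and 1.43 CPM in the wild types, with a log2 ratio of 2.85 ± 0.37 (adjusted p = 0.000952, edgeR). In mutant 1 the 39 UMIs lay in 23 members, of which the highest held 13, and in mutant 2 the 159 lay in 104 members, of which the highest held 10. Other barcodes had an Acta1 level of 6.32 and 34.6 CPM in the mutants, against 3.96 and 10.4 CPM in the wild types, again with each mutant above the wild type of its set. Chgb, the hormone granule protein chromogranin B (chr2:132781278-132795079, plus strand), had 161 and 401 UMIs in the mutants, against 14 and 96 UMIs in the wild types. Its level was 13.5 and 26.9 CPM in the mutants, against 3.73 and 8.56 CPM in the wild types, with a log2 ratio of 1.71 ± 0.23 (adjusted p = 0.000952). A single barcode of mutant 2 held 234 of the 401. In mutant 1 the highest barcode held 47 of the 161, and the highest 5 held 114. Outside the 5 highest barcodes of each library the mutants kept 47 and 136 Chgb UMIs, against 8 and 86 in the wild types. Members numbered 377 and 359 in the mutants, against 51 and 314 in the wild types. Upp1, uridine phosphorylase (chr11:9118103-9136170, plus strand), had 135 and 496 UMIs in the mutants, against 13 and 166 UMIs in the wild types. Its level was 11.4 and 33.3 CPM in the mutants, against 3.46 and 14.8 CPM in the wild types, with a log2 ratio of 1.31 ± 0.22 (adjusted p = 0.0166). Cck, the hormone cholecystokinin (chr9:121489824-121495694, minus strand), had 49 and 193 UMIs in the mutants, against 41 and 387 UMIs in the wild types. On the CPM scale, which takes the library size into account, it fell to 4.12 and 12.9 CPM in the mutants, against 10.9 and 34.5 CPM in the wild types, with a log2 ratio of -1.41 ± 0.21 (adjusted p = 0.00396). Acta1 was the gene called most often, in 13 of 19 other fits, and was still called after doublets and members with markers of other cell types were left out, when 1 gene was called in all. The direction of all 5 was the same in each of these 19 fits.

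**Figure D4:**
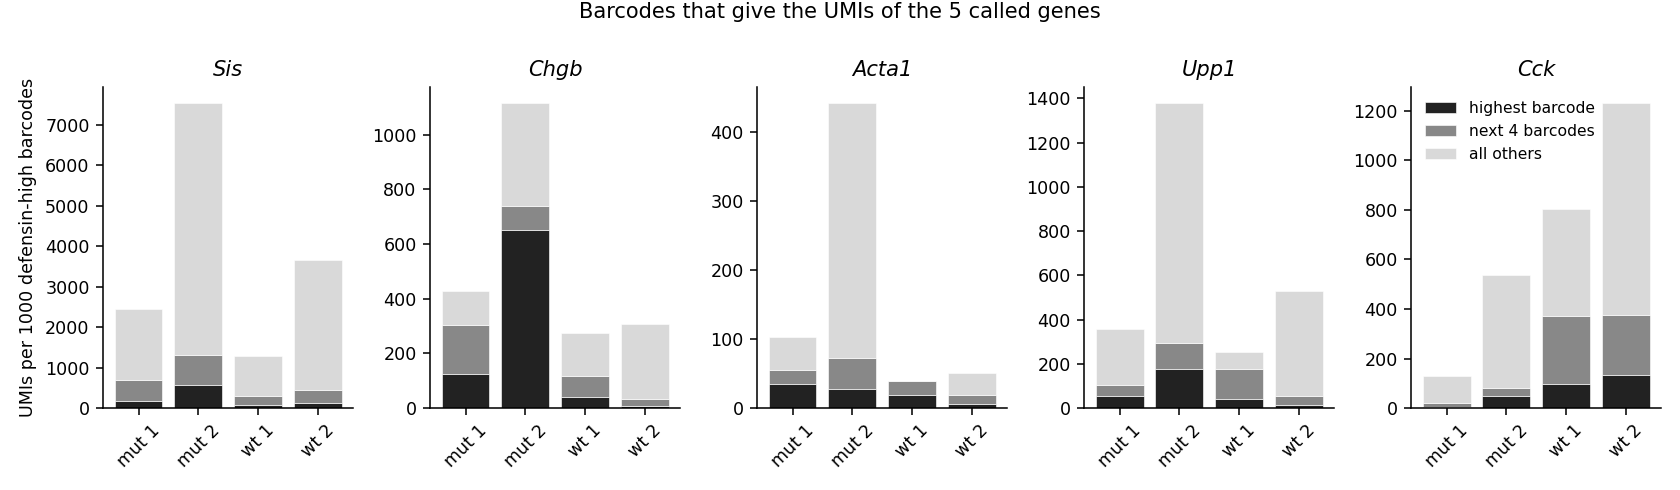
UMIs per 1000 defensin-high barcodes (y axis, from 0, one scale per gene) of the 5 called genes in each library (mut, TrnA mutant; wt, wild type), divided into the highest barcode, the next 4 barcodes and all others. In mutant 2, 1 barcode holds 234 of 401 Chgb UMIs, while Acta1, Upp1 and Sis are spread over many barcodes there. In mutant 1 the 5 highest barcodes hold 114 of 161 Chgb UMIs and 21 of 39 Acta1 UMIs.

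Genes of at least 50 CPM with the largest difference in both sets, none of which passed the test, give the scale of what these libraries hold. Mgst1, a microsomal glutathione transferase, had 93.9 and 62.96 CPM in the mutants, against 58.6 and 38.6 CPM in the wild types. Plac8, a placenta-specific family protein, had 457 and 405 CPM in the mutants, against 197 and 274 CPM in the wild types. Dmbt1, a scavenger receptor glycoprotein of mucosal defence, had 97.1 and 131 CPM in the mutants, against 40.2 and 87.96 CPM in the wild types. Fabp6, the ileal bile acid binding protein, had 186 and 526 CPM in the mutants, against 72.9 and 318 CPM in the wild types, with a log2 ratio of 1.03 ± 0.22 (adjusted p = 0.141, edgeR). On the lower side, Chrm3, the muscarinic receptor M3, had 95.6 and 96.7 CPM in the mutants, against 156 and 136 CPM in the wild types. Dach1, a transcription cofactor, had 118 and 116 CPM in the mutants, against 176 and 174 CPM in the wild types. Sntb1, a syntrophin, had 42.1 and 49.8 CPM in the mutants, against 66.8 and 73.6 CPM in the wild types. For these 3 genes both mutants were below both wild types. Their adjusted p ran from 0.447 to 0.584 in edgeR.

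The functional genes of Paneth cells were read through gene lists. Over all 11225 genes, 27.8% were higher and 23.9% lower in the mutant of both sets, and 3.64% and 2.01% were higher and lower at unadjusted p under 0.05. Of non-defensin antimicrobial genes, 3 of 20 genes were higher and 6 lower in the mutant of both sets, and the median log2 ratio was -0.20, with set A at -0.45 and set B at 0.13. Reg3b, an antibacterial lectin, had 589 and 1063 CPM in the mutants, against 407 and 668 CPM in the wild types, with a log2 ratio of 0.60 ± 0.22 (adjusted p = 0.718, edgeR). Reg4 had 328 and 362 CPM in the mutants, against 609.5 and 429.7 CPM in the wild types, with a log2 ratio of -0.57 ± 0.22 (adjusted p = 0.756). Of the markers that the rule did not read, Itln1 gave a log2 ratio of -0.28 ± 0.34, Ang4 -0.12 ± 0.32 and Mptx2 -0.33 ± 0.31 (± SE), each negative in set A and positive in set B. The defensin locus also holds genes with other symbols, such as Gm14851 (chr8:21095074-21096050, minus strand), with 27938.5 and 63737.5 CPM in the mutants, against 40010 and 68658.5 CPM in the wild types. Of these, 0 of 6 genes were higher and 3 lower in the mutant of both sets, and the median log2 ratio was -0.26. None of the genes in these lists was called.

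Regulators of Paneth fate and position gave a small median difference. Among them 4 of 23 genes were higher and 12 lower in the mutant of both sets, and the median log2 ratio was -0.14. Without TMM the median was -0.025, below the all-gene value of 0.122. Ephb3, the receptor that keeps Paneth cells at the crypt base in mice, had 8.16 and 9.19 CPM in the mutants, against 14.4 and 14.97 CPM in the wild types, with both mutants below both wild types, and a log2 ratio of -0.75 ± 0.22 (adjusted p = 0.447, edgeR). Foxa2, a forkhead factor, had 9.67 and 9.19 CPM in the mutants, against 13.6 and 13.1 CPM in the wild types. Fzd5, the Wnt receptor needed for Paneth maturation in mice, had 16.3 and 12.9 CPM in the mutants, against 5.86 and 9.63 CPM in the wild types, with a log2 ratio of 0.83 ± 0.25 (adjusted p = 0.447). Of ligands for the stem cell niche, 5 of 11 genes were higher and 1 lower in the mutant of both sets, and the median log2 ratio was 0.24. Wnt3 had 35.2 and 37.2 CPM in the mutants, against 79.8 and 34.8 CPM in the wild types, where wild type 1 alone stood apart. Nrg1, neuregulin 1, had 22 and 56 UMIs in the mutants, against 2 and 10 UMIs in the wild types. A single barcode held 18 of the 22 in mutant 1, and 1 held 47 of the 56 in mutant 2. None of these genes was called.

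Secretory machinery and stress genes did not move one way. Of protein folding and unfolded protein response genes of the endoplasmic reticulum, 4 of 46 genes were higher and 8 lower in the mutant of both sets, and the median log2 ratio was -0.037, with set A at -0.39 and set B at 0.20. Dnajc3, a chaperone of that compartment, had 82.3 and 126 CPM in the mutants, against 150.1 and 122 CPM in the wild types. Of granule and autophagy genes, 3 of 26 genes were higher and 9 lower in the mutant of both sets, and the median log2 ratio was -0.053. Without TMM these 2 medians were 0.093 and 0.062. Of integrated stress response genes, 7 of 37 genes were higher and 10 lower in the mutant of both sets, and the median log2 ratio was -0.10, with 0.02 without TMM. Atf5, a transcription factor of that response, had 4.04 and 2.21 CPM in the mutants, against 1.86 and 0.624 CPM in the wild types, with a log2 ratio of 1.47 ± 0.45 (adjusted p = 0.447, edgeR). Asns, asparagine synthetase, had 24.8 and 28.9 CPM in the mutants, against 49.2 and 27.8 CPM in the wild types. Pycr1, a proline synthesis enzyme, had 9.42 and 10.2 CPM in the mutants, against 19.4 and 12.3 CPM in the wild types. Of heat shock genes, 3 of 9 genes were higher and 5 lower in the mutant of both sets, and the median log2 ratio was -0.24, and of immediate early genes, 2 of 17 genes were higher and 4 lower in the mutant of both sets, and the median log2 ratio was -0.059. None was called.

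Nuclear genes of the respiratory chain and of the ribosome had small positive median log2 ratios, and none of these genes passed the test. For complex I, 28 of 36 genes were higher and 0 lower in the mutant of both sets, and the median log2 ratio was 0.20, with set A at 0.26 and set B at 0.16. For complexes III to V, 31 of 37 genes were higher and 0 lower in the mutant of both sets, and the median log2 ratio was 0.25. Cox5a, a cytochrome oxidase subunit, had 363 and 397 CPM in the mutants, against 254 and 295 CPM in the wild types, with a log2 ratio of 0.47 ± 0.20 (adjusted p = 0.828, edgeR). Cycs, cytochrome c, had 151.4 and 193 CPM in the mutants, against 107 and 148 CPM in the wild types. Ndufc2, a complex I subunit, had 100.8 and 79.99 CPM in the mutants, against 73.5 and 63.6 CPM in the wild types. For cytosolic ribosomal proteins, 62 of 75 genes were higher and 0 lower in the mutant of both sets, and the median log2 ratio was 0.25. In other barcodes the medians of these 3 lists were 0.13, 0.12 and 0.16. Without TMM in members they were 0.34, 0.38 and 0.39, against 0.122 for all genes. Of antioxidant genes, 15 of 22 genes were higher and 2 lower in the mutant of both sets, and the median log2 ratio was 0.26. Prdx3, the mitochondrial peroxiredoxin, had 49.96 and 24.2 CPM in the mutants, against 37.3 and 17.7 CPM in the wild types, so both mutants were above the wild type of their set while mutant 2 was below wild type 1. Of mitochondrial quality control genes, 11 of 26 genes were higher and 4 lower in the mutant of both sets, and the median log2 ratio was 0.10, and of glycolysis genes, 8 of 18 genes were higher and 4 lower in the mutant of both sets, and the median log2 ratio was 0.14. None was called.

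Interferon-stimulated genes were low in members and had a positive median log2 ratio. Of these, 18 of 27 genes were higher and 0 lower in the mutant of both sets, and the median log2 ratio was 0.58, with set A at 0.16 and set B at 0.68. At unadjusted p under 0.05, 15 of 27 were higher and 0 lower, beside 3.64% and 2.01% of all genes. After doublets and members with markers of other cells were left out the median was 0.37. Their summed level in members was 1042 and 1052 CPM in the mutants, against 1024 and 718 CPM in the wild types. Other barcodes had 3510 and 3679 CPM in the mutants, against 3701 and 2363 CPM in the wild types. In both, wild type 2 alone was low, and the median in other barcodes was 0.28. Ifit1, an RNA-binding antiviral protein, had 1.51 and 3.15 CPM in the mutants, against 0.266 and 0.802 CPM in the wild types. Isg15, a ubiquitin-like protein, had 2.44 and 3.69 CPM in the mutants, against 0.266 and 1.34 CPM in the wild types. Oasl2 had 4.71 and 7.51 CPM in the mutants, against 2.40 and 3.39 CPM in the wild types. In each of these, both mutants were above both wild types, from few UMIs. Adjusted p was 0.258, 0.336 and 0.379 (edgeR), so none was called. Class II antigen presentation genes gave a median of 0.60, with set A at -0.061 and set B at 1.23. Cd74, their invariant chain, had 229.6 and 183 CPM in the mutants, against 227 and 80.5 CPM in the wild types, where wild type 2 alone was low. The summed class II level was also lowest in wild type 2 among other barcodes, at 2208 and 2438 CPM in the mutants, against 2684 and 1079.9 CPM in the wild types. Whether genotype or that library sets the difference cannot be told apart.

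**Figure D5:**
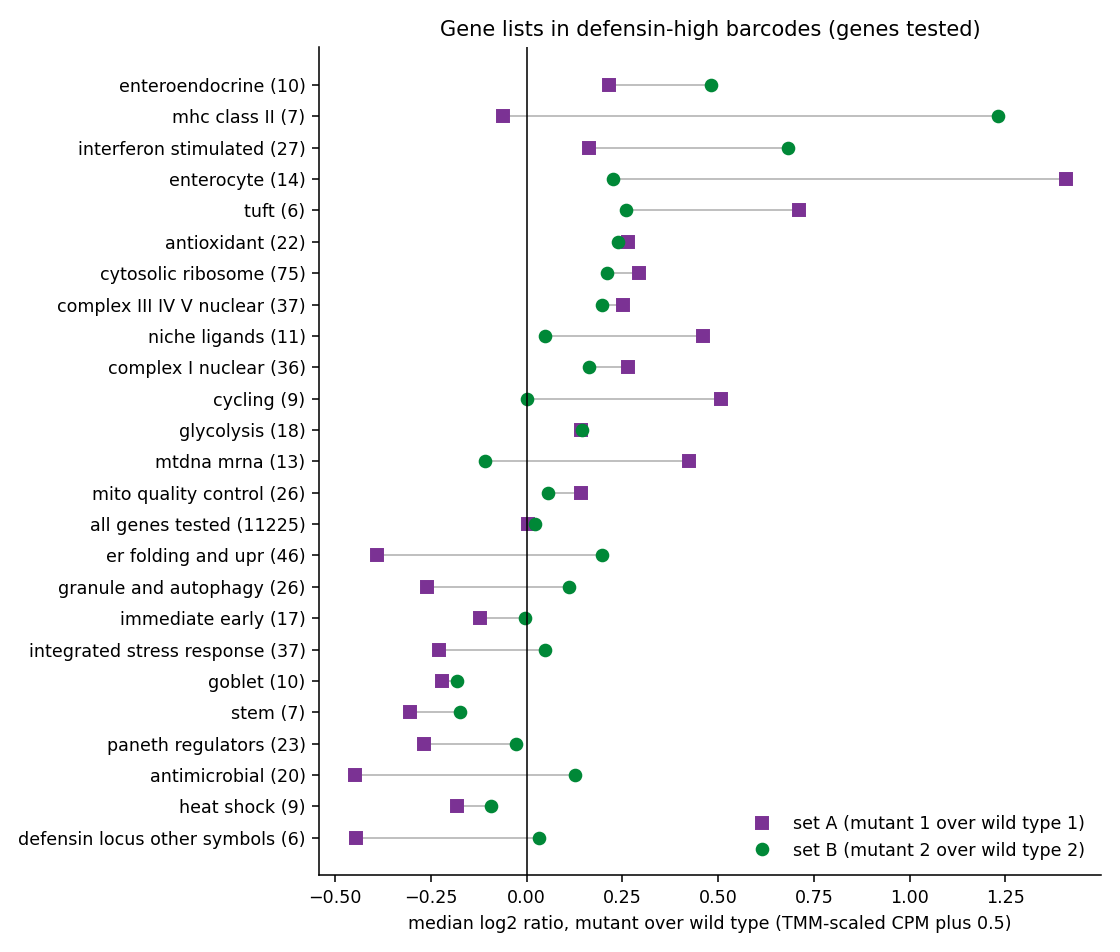
Median log2 ratio of the mutant over the wild type (x axis, TMM-scaled CPM plus 0.5) for each gene list in defensin-high barcodes, with the number of genes tested in brackets; squares are set A and circles set B. Complex I, complexes III to V and the cytosolic ribosome lie at 0.16 to 0.29 in both sets, while the endoplasmic reticulum, class II and mitochondrial mRNA lists lie on opposite sides of 0 in the 2 sets.

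Markers of other epithelial cells were present in members, and the enterocyte list had a positive median in both sets. The 14 enterocyte markers, none at 0 in any library, summed on library totals of members to 904 and 1741 CPM in the mutants, against 277 and 1524 CPM in the wild types. In other barcodes they summed to 3579.5 and 11233 CPM in the mutants, against 3819 and 9483 CPM in the wild types. Of the 14, Sis alone was called, and 9 were higher and 0 lower in the mutant of both sets. At unadjusted p under 0.05, 8 were higher and 1 lower, and their median log2 ratio was 0.57, with set A at 1.41 and set B at 0.23. Fabp1 had 95.5 and 332 CPM in the mutants, against 8.78 and 290.4 CPM in the wild types, where wild type 1 alone stood apart. After doublets and members with other markers were left out the median was 0.40. The 11 enteroendocrine markers, which include Chgb and Cck, summed to 141 and 263 CPM in the mutants, against 160.3 and 143 CPM in the wild types, with Neurod1 and Neurog3 at 0 in wild type 1. Their median of 0.62 became -0.066 after the same members were left out. These marker lists were read in choosing the members to leave out. Part of the change in the enterocyte and enteroendocrine medians is therefore built in. Goblet markers other than Ang4 summed to 13869 and 12283 CPM in the mutants, against 12204 and 14168 CPM in the wild types. In other barcodes these goblet markers summed to 18968 and 15141 CPM in the mutants, against 28708 and 21333 CPM in the wild types. Stem cell markers summed to 1108 and 556 CPM in the mutants, against 1065 and 579 CPM in the wild types. Cycling markers summed to 639 and 239 CPM in the mutants, against 303 and 249 CPM in the wild types. Median log2 ratios of these 3 lists were -0.10, -0.14 and 0.18. Tuft cell markers, with a median of 0.54, summed to 12.6 and 22.98 CPM in the mutants, against 4.45 and 17.9 CPM in the wild types, with Alox5ap, Il25 and Sh2d6 at 0 in wild type 1. Lymphocyte markers summed to 7.32 and 7.09 CPM in the mutants, against 4.71 and 10.7 CPM in the wild types, and 1 to 5 of their 11 genes were at 0 in each library. Macrophage markers summed to 6.38 and 3.60 CPM in the mutants, against 5.49 and 2.06 CPM in the wild types, and 2 to 5 of their 7 genes were at 0, Adgre1 in all 4. Members in which markers of another epithelial cell or of lymphocytes exceeded 2% of UMIs were 18.8 and 13.4% in mutants 1 and 2, against 21.6 and 17.5% in wild types 1 and 2. The goblet markers of this limit include Spink4, which was higher in members than in other barcodes. Spink4 had in members 5050.5 and 8923 CPM in the mutants, against 6774 and 10127 CPM in the wild types. Other barcodes had 2039 and 2043 CPM in the mutants, against 2132 and 2399 CPM in the wild types. The limit can thus also leave out members for their Spink4 alone. With these members and doublets left out, Sis, Chgb, Upp1 and Cck were not called.

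The defensin mix differed so much between libraries that the genotypes were also set side by side in the high Defa21 plus Defa22 range, a choice made after seeing the data. In this range the same fit called 88 of 10064 genes (0.874%), 73 (0.725%) higher and 15 (0.149%) lower, among them all 5 of the calls above. Of 14 enterocyte markers, 8 were called higher, and of 26 interferon-stimulated genes 4, Ifit1, Isg15, Ifit1bl1 and Psmb8. Of 19 antimicrobial genes 2 were called higher, Reg3b and Dmbt1, and 1 lower, Reg4. Calls in this range also took in Fzd5, Nrg1, Plac8, Mgst1 and Fabp6 as higher, and Chrm3 and Sntb1 as lower. None of these antimicrobial and other genes was called over all members. The doublets in this range numbered 34 and 37 in the mutants, against 0 and 7 in the wild types. With doublets and members with other markers also left out, 17 of 9422 genes (0.18%) were called, 14 (0.149%) higher and 3 (0.0318%) lower. Among them were 4 enterocyte markers (Apoa1, Fabp1, Fabp2 and Sis) and 0 interferon-stimulated genes. Ifit1, Isg15 and Ifit1bl1 were no longer tested there, since they did not pass the filter on low counts. Psmb8 was tested and not called (adjusted p = 0.768, edgeR). Dmbt1 and Plac8 were still called (adjusted p = 0.041 and 0.00676, edgeR). Reg3b, Reg4, Fzd5, Mgst1, Fabp6, Chrm3 and Sntb1 were not, and Nrg1 was no longer tested. On the CPM scale within the range, before that step, Upp1 had 15.3 and 31.8 CPM in the mutants, against 3.06 and 7.87 CPM in the wild types. St3gal4, a sialyltransferase, had 130.2 and 91.4 CPM in the mutants, against 33.7 and 50.7 CPM in the wild types. Otud7a, a deubiquitinase, had 3.23 and 2.90 CPM in the mutants, against 9.80 and 9.61 CPM in the wild types. Sidt1, a transmembrane protein, had 37.7 and 27.01 CPM in the mutants, against 50.5 and 46.98 CPM in the wild types, and both were among the 3 lower calls that were left. The range holds 40 members of wild type 1. Because the range was drawn from these cells, the counts describe how the result depends on which members enter.

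To compare the mutant log2 ratio of members with that of all other barcodes pooled, both were tested in 1 model with a term for each library. Other barcodes hold many cell types, so their ratio also follows the cell mix of each library. The part of that mix was not tested. The edgeR interaction called 28 of 16278 genes (0.172%), 16 (0.0983%) with a higher and 12 (0.0737%) with a lower mutant log2 ratio in members than in other barcodes. In other barcodes alone, edgeR called 0 of 16988 genes, with 871 at unadjusted p under 0.05. The interaction for Sis was 1.02 ± 0.23 (SE, adjusted p = 0.0103) on the log2 scale. In other barcodes Sis had 513 and 1364 CPM in the mutants, against 485 and 919 CPM in the wild types. Fabp6 gave 1.02 ± 0.26 (SE, adjusted p = 0.0427), with 3581 of its 7849 UMIs of mutant 2 in doublets. Chgb gave 1.66 ± 0.21 (SE, adjusted p = 1.26e-11) and Cck -0.91 ± 0.19 (SE, adjusted p = 0.00325), while for Acta1 and Upp1 the interaction was not called (adjusted p of 0.0666 and 0.931). Asns gave -0.73 ± 0.17 (SE, adjusted p = 0.0132), from a log2 ratio of -0.44 in members and 0.31 in other barcodes, and in other barcodes had 36.6 and 32.6 CPM in the mutants, against 37.5 and 20.8 CPM in the wild types. Sntb1 gave -0.73 ± 0.18 (SE, adjusted p = 0.0258), from -0.61 in members and 0.30 in other barcodes. In other barcodes Sntb1 had 2.10 and 3.86 CPM in the mutants, against 1.20 and 4.31 CPM in the wild types. Clca1, a goblet mucus protein, gave 0.86 ± 0.20 (SE, adjusted p = 0.0133), from 0.26 in members and -0.58 in other barcodes. Within sets A and B the difference between members and other barcodes was 2.03 and 0.26 for Sis, and 1.68 and 0.37 for Fabp6. It was 1.60 and 0.12 for Clca1, -1.27 and -0.42 for Sntb1, 1.78 and 1.64 for Chgb and -0.66 and -0.87 for Cck. Among the 12 lower calls were 4 haemoglobin genes, Hba-a1, Hba-a2, Hbb-bs and Hbb-bt, with at most 12 UMIs each in the members of any library. Erythroid markers in other barcodes summed to 22.1 and 16.3 CPM in the mutants, against 3.18 and 0.708 CPM in the wild types. In members they summed to 1.46 and 1.30 CPM in the mutants, against 3.40 and 1.89 CPM in the wild types. With terms for set and genotype in place of each library 0 genes were called (279 at unadjusted p under 0.05, edgeR). Without mutant 1, mutant 2, wild type 1 and wild type 2 in turn the counts were 10, 5, 26 and 236. With doublets and members with other markers left out 6 genes were called.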

How the data were processed

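Single-cell libraries of sorted mouse small-intestinal epithelium were analysed, 2 of TrnA mutants and 2 of wild types. The deposited files hold UMI counts per gene and barcode, not normalized, for 32285 features. Per the file headers, the authors ran Cell Ranger, version 7.0.0 for set A and version 7.1.0 for set B. The build is mm10, per the submitters' processing notes. How introns, multi-gene reads and empty droplets were treated is not given in the sources used here.

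Defensin shares were computed on raw counts. The members, the gene lists, the cell type markers and the tests were chosen with earlier results of these data known. UMIs were summed per library over members and tested by edgeR's quasi-likelihood method (version 4.0.16 under R 4.3.3) after TMM scaling and filterByExpr, with a Benjamini-Hochberg threshold of 0.05, with the set as a replicate block. The set comes from the titles. Deviations of the libraries of a set from their group means correlated at 0.503 across genes, and the labels carry no replicate numbers. DESeq2 1.42.0 was an alternative. Other alternatives changed the filter, the scaling, the share, UMI and mitochondrial limits and the members, or left out each library in turn. Each of those 3-library fits has no set term. Shares were tested with exact permutation over libraries, and 2 against 2 cannot give a p below 0.333.

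Doublets came from scrublet (scanpy 1.11.5). Its automatic threshold marked 17.1 and 7.16% of barcodes in the mutants, against 0.110 and 0% in the wild types. It had thus not worked in the wild types, and the threshold was set to mark 0.8% of barcodes per 1000 barcodes. Doublets were kept in the main result. On counts simulated for 11090 genes the genotype fit recovered 76 of the 100 made to change 2-fold, recovered 99 of the 100 made to change 4-fold, and called 12 others. Without the set term it recovered 1 and 76 and called 0 others. The counts were drawn with a separate mean per gene for each set and with the spread of the fit that holds the set term. A set difference was thus built in, so the simulation cannot tell which of these fits suits the data. The simulated interaction over 11246 genes recovered 7 and 92 and called 0 others.

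Genes outside Defa and Lyz1 were named by a rule. In each direction it takes at most 10 calls that keep their sign in both sets and reach 20 CPM. Where under 5 qualify, genes of 50 CPM or more are added in the order of the weaker of their 2 within-set log2 ratios. The lowest p-values of each list (up to 4 genes), the mitochondrial mRNAs, up to 5 interaction genes per direction and the Paneth markers can also be named. Genes of the Defa21 plus Defa22 ranges lie outside this rule and were chosen after their values were seen, as the 5 with the largest difference per direction shared by all libraries, beside a few Paneth genes. Within-set log2 ratios use CPM plus 0.5. Coordinates are GENCODE vM21, where all 152 gene IDs were found. Promoter sequences are from RefSeq (GRCm38.p6), with matches by Biopython 1.88.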

Additional observations from a re-analysis of the deposited data

Results flagged for a closer look

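The mutant log2 ratio in defensin-high barcodes differed from that in the other barcodes of the same libraries for 28 genes by the edgeR interaction test (Benjamini-Hochberg), and 13 of them are genes named under the rule for named genes. Values are the log2 ratio in members minus that in other barcodes. It was positive for Chgb, at 1.66 (adjusted p = 1.26e-11), where 1 barcode held 234 of its 401 UMIs in mutant 2. In mutant 1, 5 barcodes held 114 of the 161 Chgb UMIs. Gip, the hormone gastric inhibitory polypeptide, had 1.59 (adjusted p = 2.31e-10), from 0.82 in members and -0.76 in other barcodes, and 1 barcode held 1778 of its 2309 UMIs in mutant 2. Within set A the Gip difference was 0.51 and within set B 2.44. Nrg1 had 1.89 (adjusted p = 0.0154) and Tac1, the tachykinin precursor, 1.44 (adjusted p = 0.0427). In mutant 2, 1 barcode held 47 of the 56 Nrg1 UMIs and 1 held 62 of the 83 Tac1 UMIs. In mutant 1, 1 barcode held 18 of the 22 Nrg1 UMIs and 1 held 24 of the 40 Tac1 UMIs. Sis had 1.02 (adjusted p = 0.0103). Fabp6 also had 1.02 (adjusted p = 0.0427), and 1 barcode held 1852 of its 7849 UMIs in mutant 2. Clca1 had 0.86 (adjusted p = 0.0133), from 0.26 in members and -0.58 in other barcodes, and Gm43305 had 0.74 (adjusted p = 0.0211). In members the Clca1 log2 ratio was 0.76 within set A and -0.20 within set B. The difference was negative for Cck, at -0.91 (adjusted p = 0.00325), from -1.41 in members and -0.58 in other barcodes. Sntb1 had -0.73 (adjusted p = 0.0258) and Asns had -0.73 (adjusted p = 0.0132). In the fits each had a negative log2 ratio in members and a positive one in other barcodes. These signs did not hold in both sets. In set B, Sntb1 in other barcodes had 3.86 CPM in the mutant against 4.31 CPM in the wild type. Asns was not lower in the mutant in members of set B, nor higher in the mutant in other barcodes of set A. Ccl5, a chemokine of lymphocytes, had -1.15 (adjusted p = 0.0468), and 1 barcode held 49 of its 57 UMIs in wild type 2. Gm15292, a gene of the defensin cluster, had -1.13 (adjusted p = 0.048), from -0.13 in members and 1.04 in other barcodes. It is one of several near copies there, and its counts are uncertain. Several differences were larger in set A. Within sets A and B they were 2.03 and 0.26 for Sis, 1.68 and 0.37 for Fabp6 and 1.60 and 0.12 for Clca1. For Gm15292 they were -1.85 and -0.37, for Sntb1 -1.27 and -0.42 and for Gm43305 0.87 and 0.53. Chgb had 1.78 and 1.64, Tac1 0.93 and 1.42 and Cck -0.66 and -0.87. With the count of a gene per member limited, 8 genes were called in all, and the values of Nrg1, Tac1 and Ccl5 changed sign. The parts of free RNA from other cells and of the cell mix of other barcodes in these 13 differences were not tested.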

How the results depend on the processing

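Between genotypes 5 genes were called. The fit without the replicate block called 0 and DESeq2 called 0, with 160 and 92 genes at unadjusted p under 0.05. Without the filter on low counts 41 were called, at a defensin share of 10% or more 16, at a share of 40% or more 44, and with mitochondrial UMIs under 15% 36. Leaving out scrublet doublets left 1 and leaving out members with other markers gave 29. Alternatives chosen after seeing the data gave 1 with both left out, 1 with the count of a gene per member limited, 88 with Defa21 plus Defa22 at 25% or more, and 17 in that range with both left out. With each library left out in turn, and with it the set term, the count was 0 to 0. Of 28 interaction genes, terms for set and genotype left 0. Added settings gave 6 without doublets and other markers, 8 with limited counts and 57 in the Defa21 plus Defa22 range, and leaving out a library gave 5 to 236. The 5 called genes kept their sign in all 95 refits, and the 13 named interaction genes changed it in 7 of 130. With the count of a gene per member limited Nrg1 gave -0.18, Tac1 -0.064 and Ccl5 0.23. Ccl5 also gave 0.29 without doublets and other markers and 0.66 in the Defa21 plus Defa22 range. With a library left out Ccl5 ran from -1.87 to 0.62 and Cck from -1.66 to 0.14, both positive without wild type 2. Genes named but not called changed sign in 115 of 2208 values.

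Leaving out 1 library took the mitochondrial share difference (mutant minus wild type, percentage points) to between -0.0505 and 0.723, negative without wild type 1. Shares of defensin genes within Defa plus Lyz1 also turned. They ran from -8.13 to 5.63 for Defa24, -3.33 to 5.86 for Defa21, -2.04 to 5.19 for Defa22, -5.82 to 2.88 for Defa30, -5.23 to 2.02 for Lyz1, -0.245 to 1.28 for Defa36 and -0.144 to 0.205 for Defa17. The positive Defa24 and Defa30 and negative Defa21 and Defa22 extremes are without wild type 2. Within Defa genes alone Defa17 gave -0.00979. The percentage of members with Defa21 plus Defa22 under 10% differed by -12.8 points, and by -33.4 to 7.77 with a library left out. Differences for Defa5, Defa29 and Defa34 stayed positive. The causes were not tested. Wild type 1, with 51 members and 3823502 UMIs, limits the depth of every comparison.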
